A study of Homo sapiens with 8 samples.

Results

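The genes described here are 91 protein-coding genes whose mRNA level in MEG-01 cells was higher with PMA and higher again when Ceefourin 2 was given together with PMA. They were chosen by their measured levels in TPM (an RNA-seq abundance unit scaled for transcript length and library depth). A gene entered if its mean untreated level was above 0.1 TPM, its mean PMA level was at least 2 times the untreated level, its mean level in PMA plus Ceefourin 2 was at least 3 TPM and at least 1.6 times the PMA level, and both PMA plus Ceefourin 2 libraries lay above both PMA libraries. Of 20004 protein-coding genes, 955 met the conditions on the untreated, PMA and PMA plus Ceefourin 2 levels, and 91 of them, or 9.53 per 100, also met the conditions on the increase. A further 2 genes reached the ratio of 1.6 with overlapping libraries and were left out.

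MEG-01 is an established human megakaryoblastic leukaemia line, and messenger RNA was sequenced from it in 4 groups of 2 libraries. One group was left untreated, another received PMA at 100 nM, the third PMA at 100 nM with Ceefourin 2 at 20 µM, and the fourth Ceefourin 2 alone, for which the sources used here give no dose, and each treatment lasted 48 h. The text speaks of these as untreated, PMA, PMA plus Ceefourin 2 (or both agents) and Ceefourin 2 alone, and values in pairs are libraries 1 and 2 of a group. Nothing in the labels says that the 2 libraries of a group came from separate cultures, so p-values measure only the spread between these libraries, which may be technical.

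PMA is a phorbol ester that mimics diacylglycerol and activates protein kinase C, which signals through the MAP kinase cascade to AP-1 and related transcription factors. In megakaryoblastic lines it stops proliferation and starts a programme of adhesion, spreading and platelet gene expression. Ceefourin 2 is an inhibitor of ABCC4, also called MRP4, a membrane transporter that exports cyclic nucleotides and other organic anions. Genes induced by protein kinase C include secreted cytokines, ligands of the EGF receptor, proteases with their inhibitors, and feedback inhibitors of the signalling cascades themselves.

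Expected counts per library ranged from 44430292 to 89950886. The share of counts from mitochondrially encoded genes was 9.61% and 4.53% in PMA libraries 1 and 2, 8.32% and 4.94% in those of PMA plus Ceefourin 2, and 2.55% to 3.94% in the libraries without PMA. With mitochondrially encoded genes removed before scaling, 97 genes met the selection, 89 of them among the 91. ABCC4 stood at 90.8 and 74.7 TPM in untreated libraries 1 and 2, 129 and 117 with PMA, 149 and 134 with PMA plus Ceefourin 2, and 112 and 92.5 with Ceefourin 2 alone. Its own log2 fold change between PMA plus Ceefourin 2 and PMA was 0.22 (SE 0.098, edgeR adjusted p = 0.371), and it was not a member. Summed TPM of megakaryocyte and platelet markers outside the 91 genes was 1230 to 1270 in untreated, 4100 to 4550 in PMA, 4070 to 4250 in PMA plus Ceefourin 2 and 1320 to 1410 in Ceefourin 2 alone. In a bulk measurement, fewer cells of a kind and less RNA per cell cannot be told apart.

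Across the 91 genes the median level was 0.92 TPM in untreated cells, 7.15 in PMA, 13.2 in PMA plus Ceefourin 2 and 1.83 in Ceefourin 2 alone. PMA levels were 2.04 to 1820 times the untreated ones, with a median of 6.01. Levels in PMA plus Ceefourin 2 were 1.61 to 7.52 times those in PMA, with a median of 1.96, and 44 genes reached 2 times and 10 genes reached 3 times. Ratios taken between libraries of the same number were at least 1.39 for library 1 and at least 1.37 for library 2. These ratios chose the genes and are given as a description. In the edgeR fit over all 17314 tested genes, 89 of the 91 were called higher in PMA than in untreated cells, where 27.9% of all tested genes were. In PMA plus Ceefourin 2 against PMA, 44 of the 91 passed the same threshold, where 0.918% of all tested genes were called higher, and nothing is read from either count because the selection used these libraries.

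**Figure D1:**
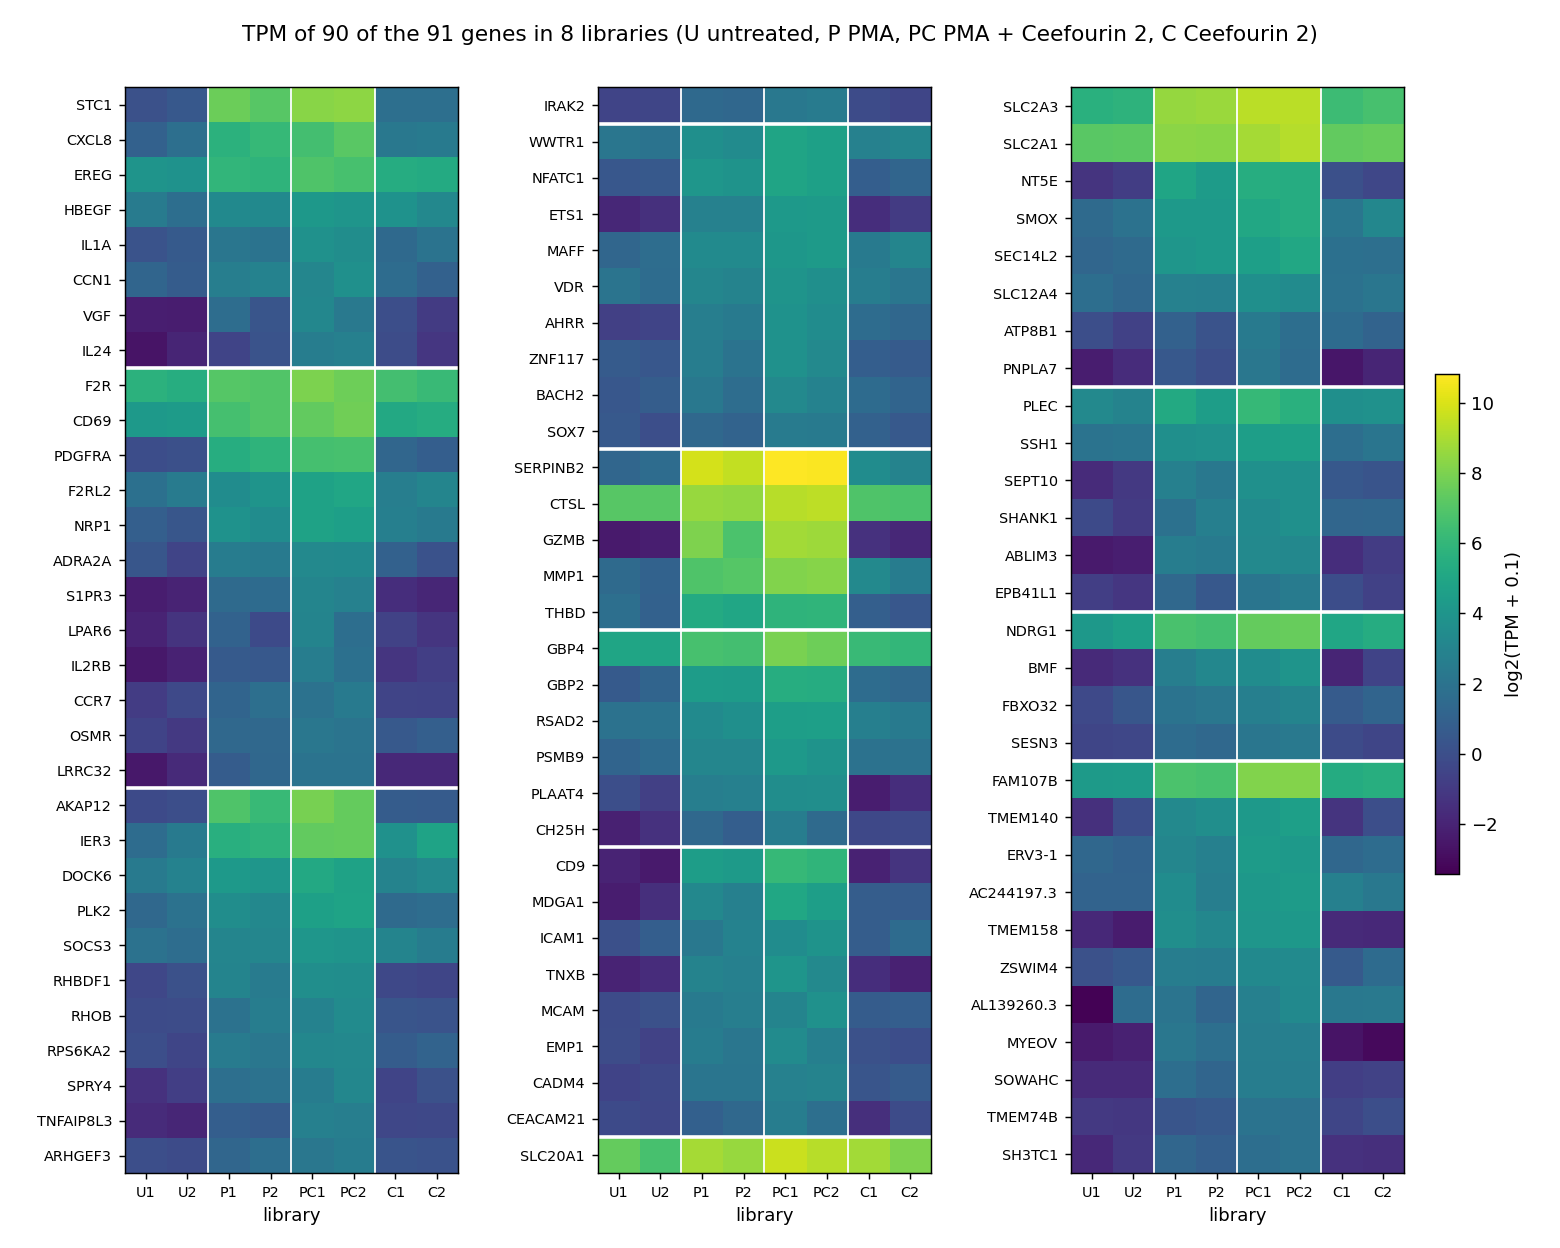
Levels of 90 of the 91 genes in the 8 libraries, as log2(TPM + 0.1) on the colour scale. Each row is 1 gene, white horizontal lines separate the functional groups of the text, and columns are libraries 1 and 2 of untreated (U), PMA (P), PMA plus Ceefourin 2 (PC) and Ceefourin 2 alone (C). In every row the 2 PC columns are brighter than the 2 P columns, which the selection required.

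The secreted factors were 8 genes, with PMA plus Ceefourin 2 to PMA ratios from 1.61 to 7.52 and a median of 1.93, against 1.96 over the 91 genes. The highest ratio of all 91 belonged to this group. IL24, a cytokine of the IL-10 family on chromosome 1 (206897443 to 206904139, GRCh38), stood at 0.06 and 0.16 TPM in untreated libraries 1 and 2, 0.62 and 1.08 with PMA, 6.09 and 6.70 with PMA plus Ceefourin 2, and 0.84 and 0.35 with Ceefourin 2 alone. The PMA plus Ceefourin 2 libraries lay far above all others, and Ceefourin 2 alone overlapped PMA. IL24 had only 12 expected counts over both untreated libraries, so its counting interval for PMA over untreated was wide, at a ratio of 8.23 (95% interval 4.5 to 16.5, counting error only).

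IL1A, the interleukin 1 alpha precursor, was measured at 1.08 and 1.46 TPM in untreated, 4.48 and 3.96 with PMA, 13.6 and 11.7 with PMA plus Ceefourin 2, and 2.64 and 3.98 with Ceefourin 2 alone. Its Ceefourin 2 libraries were above both untreated ones, and the higher of them reached the lower PMA library. CXCL8, the neutrophil chemokine interleukin 8, went from 1.88 and 3.29 TPM in untreated through 52.9 and 70.1 with PMA to 94.2 and 146 with PMA plus Ceefourin 2, with 4.84 and 5.09 with Ceefourin 2 alone. VGF, a neuropeptide precursor, had 0.12 and 0.11 TPM untreated, 3.04 and 1.16 with PMA, 8.98 and 4.93 with both agents, and 0.91 and 0.43 with Ceefourin 2 alone. Libraries 1 and 2 of VGF differed widely in the 3 treated groups, with library 1 the higher in each.

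The EGF family was represented by EREG (epiregulin) and HBEGF (heparin-binding EGF-like growth factor), which activate the EGF receptor and ERBB4. EREG, on chromosome 4 at 74365143 to 74388751, had 15.6 and 14.4 TPM in untreated, 60.5 and 57.2 with PMA, 118 and 101 with PMA plus Ceefourin 2, and 42.3 and 39.4 with Ceefourin 2 alone. The 4 groups were fully separated, with Ceefourin 2 alone between untreated and PMA. HBEGF had 5.69 and 3.25 TPM untreated, 9.92 and 9.90 with PMA, 18.03 and 15.7 with both agents, and 14.4 and 9.29 with Ceefourin 2 alone, and here Ceefourin 2 alone overlapped PMA. STC1, the hormone stanniocalcin 1, was among the most abundant members in PMA plus Ceefourin 2, with 307 and 332 TPM against 195 and 139 with PMA, 0.99 and 1.32 in untreated and 3.36 and 3.33 with Ceefourin 2 alone. CCN1, a matricellular protein, was the member closest to the threshold and is given with its neighbours below.

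The 12 surface receptors had a median PMA plus Ceefourin 2 to PMA ratio of 1.97. Among receptors for cytokines, IL2RB, a chain shared by the IL-2 and IL-15 receptors, stood at 0.08 and 0.14 TPM in untreated, 1.43 and 1.31 with PMA, 5.94 and 3.53 with PMA plus Ceefourin 2, and 0.34 and 0.49 with Ceefourin 2 alone. OSMR, the oncostatin M receptor chain, had 0.59 and 0.39 TPM untreated, 2.49 and 2.56 with PMA, 4.55 and 4.14 with both agents, and 1.37 and 1.77 with Ceefourin 2 alone. CCR7, the receptor for the chemokines CCL19 and CCL21, had 0.44 and 0.73 TPM untreated, 2.18 and 3.29 with PMA, 3.81 and 5.18 with both agents, and 0.60 and 0.59 with Ceefourin 2 alone. In IL2RB and OSMR both Ceefourin 2 libraries exceeded both untreated ones, while in CCR7 they overlapped.

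Receptors for growth and guidance factors were PDGFRA and NRP1. PDGFRA, the alpha receptor for platelet-derived growth factor, had 0.86 and 0.93 TPM in untreated, 44.1 and 56.1 with PMA, 97.8 and 101 with PMA plus Ceefourin 2, and 2.37 and 1.72 with Ceefourin 2 alone. NRP1, neuropilin 1, a coreceptor for semaphorins and VEGF on chromosome 10 (33177492 to 33336262), had 1.75 and 1.22 TPM untreated, 14.2 and 11.1 with PMA, 27.9 and 24.4 with both agents, and 6.46 and 5.22 with Ceefourin 2 alone. All 4 groups were separated in both genes. PDGFRA is also a stromal cell marker, and the summed TPM of the other 14 genes on that marker list was 2.41 to 2.42 in untreated, 14.4 to 20.4 in PMA, 23.0 to 25.9 in PMA plus Ceefourin 2 and 1.52 to 3.15 in Ceefourin 2 alone, with POSTN at 0 in every library. Few genes make up these sums, as 10 stayed below 1 TPM in all groups. Of the 5 that could be tested, edgeR called 3 higher and 1 lower in PMA against untreated, where it called 27.9% of all tested genes higher. In PMA plus Ceefourin 2 against PMA it called 0 in either direction, with a median log2 fold change of 0.53. The part of this list in the PDGFRA values was not tested.

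Receptors coupled to G proteins made up 6 of the 12, CCR7 among them. F2R, the main thrombin receptor of human platelets, was the most abundant, with 52.7 and 43.8 TPM in untreated, 131 and 123 with PMA, 259 and 205 with PMA plus Ceefourin 2, and 92.8 and 75.0 with Ceefourin 2 alone. LPAR6, a receptor for lysophosphatidic acid, had 0.15 and 0.32 TPM untreated, 2.01 and 0.76 with PMA, 7.97 and 3.23 with both agents, and 0.55 and 0.34 with Ceefourin 2 alone. Libraries 1 and 2 of LPAR6 differed more than 2 times in PMA and in PMA plus Ceefourin 2, so its ratio of 4.04 rests on scattered values. S1PR3, a sphingosine 1-phosphate receptor, had 0.11 and 0.15 TPM untreated, 2.72 and 2.85 with PMA, 8.24 and 7.03 with both agents, and 0.24 and 0.17 with Ceefourin 2 alone, with close libraries in each group. F2RL2, a protease-activated receptor of the same family as F2R, was 2.23 times and ADRA2A, the alpha-2A adrenergic receptor of platelets, 1.78 times as high in PMA plus Ceefourin 2 as in PMA. Of the other receptors, CD69, an early activation antigen, had a ratio of 1.71, and LRRC32, which presents latent TGF-beta at the surface, had a ratio of 1.96.

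The signalling group held 12 genes, among them the inhibitors SPRY4 and SOCS3. IER3, an immediate early gene that prolongs ERK activity and modulates survival, stood at 2.98 and 5.40 TPM in untreated, 47.5 and 54.2 with PMA, 166 and 171 with PMA plus Ceefourin 2, and 13.4 and 28.4 with Ceefourin 2 alone. SPRY4, a feedback inhibitor of receptor tyrosine kinase signalling, had 0.28 and 0.48 TPM untreated, 3.37 and 3.75 with PMA, 5.91 and 9.08 with both agents, and 0.61 and 1.00 with Ceefourin 2 alone. SOCS3, which blocks cytokine receptors that signal through JAK and STAT, had a ratio of 1.87 between PMA plus Ceefourin 2 and PMA. In IER3 and SPRY4 the 4 groups did not overlap.

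TNFAIP8L3, a carrier of phosphoinositide second messengers on chromosome 15 (51056598 to 51105276), had the next largest ratio after IL24, at 4.10. It stood at 0.22 and 0.17 TPM in untreated, 1.68 and 1.5 with PMA, 6.74 and 6.29 with PMA plus Ceefourin 2, and 0.67 and 0.70 with Ceefourin 2 alone, with the 2 libraries close in each group. The kinase scaffold AKAP12, which binds protein kinase A and protein kinase C, was 113 times as high in PMA as in untreated cells and a further 2.13 times as high with Ceefourin 2. The kinases PLK2 and RPS6KA2 had PMA plus Ceefourin 2 to PMA ratios of 2.59 and 1.78, and IRAK2, which acts below the interleukin 1 receptor and Toll-like receptors, a ratio of 2.05. The small GTPase RHOB (1.89), the exchange factors ARHGEF3 (1.91) and DOCK6 (1.80), and the inactive rhomboid RHBDF1 (1.76), which helps to release EGF family ligands, completed the group.

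Transcription regulators numbered 9, with PMA plus Ceefourin 2 to PMA ratios from 1.73 to 2.75 and levels from 5.35 to 27.5 TPM. ETS1, an ETS factor expressed in lymphoid and endothelial cells and in megakaryocytes, had 0.18 and 0.27 TPM in untreated, 6.94 and 7.06 with PMA, 18.5 and 20.0 with PMA plus Ceefourin 2, and 0.24 and 0.42 with Ceefourin 2 alone. Its Ceefourin 2 libraries overlapped the untreated ones. WWTR1, also called TAZ, a Hippo pathway coactivator, had 4.33 and 3.86 TPM untreated, 12.4 and 10.7 with PMA, 29.7 and 25.4 with both agents, and 7.03 and 8.32 with Ceefourin 2 alone. MAFF, a small MAF protein, had 2.33 and 3.06 TPM untreated, 10.3 and 10.6 with PMA, 17.6 and 19.8 with both agents, and 5.29 and 8.12 with Ceefourin 2 alone. NFATC1, a calcium-regulated factor known from osteoclasts, had 1.28 and 1.39 TPM untreated, 16.5 and 14.9 with PMA, 29.5 and 25.5 with both agents, and 1.70 and 2.22 with Ceefourin 2 alone. In WWTR1, MAFF and NFATC1 Ceefourin 2 alone was above untreated in both libraries and below PMA. The other 14 genes on the osteoclast marker list summed to 655 to 700 TPM in untreated, 652 to 709 in PMA, 627 to 643 in PMA plus Ceefourin 2 and 569 to 644 in Ceefourin 2 alone.

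AHRR, the repressor that the aryl hydrocarbon receptor induces against itself, had 0.50 and 0.60 TPM in untreated, 6.17 and 5.08 with PMA, 14.2 and 11.3 with PMA plus Ceefourin 2, and 2.95 and 2.47 with Ceefourin 2 alone. The 4 groups were separated. The deposited table holds AHRR under a pair of identifiers, so reads may be split between them, and these values belong to ENSG00000286169.1. The other, ENSG00000063438.17, was lower in every library but had the same order of group means, with 0.19 and 0.17 TPM untreated, 0.79 and 1.32 with PMA, 2.19 and 2.01 with both agents, and 0.72 and 0.32 with Ceefourin 2 alone. The remaining transcription regulators were VDR, the vitamin D receptor (ratio 1.73), the repressor BACH2 (2.15), the SOX factor SOX7 (2.30) and the zinc finger gene ZNF117 (2.35), which overlaps ERV3-1 on the same strand, so that their values are uncertain.

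Promoter sequences from RefSeq (GRCh38.p14) were found for 61 of the 91 genes, as windows of 300 bases that run from 250 before to 50 after the annotated start. Because PMA acts through AP-1 and AHRR is a target of the aryl hydrocarbon receptor, the windows were searched on both strands for the AP-1 element TGANTCA and for the receptor element TNGCGTG with its core GCGTG, among other motifs. The AP-1 element, searched with any base at N, was present in 9 of 61 member promoters (14.8%) and in 6.15% of 22199 promoters of coding genes. The 150 bases before the start are shown, on the strand of the gene, for 5 of these 9, with the element in capitals. They are SERPINB2 (chr18:63887555-63887704, plus strand), CXCL8 (chr4:73740419-73740568, plus), PDGFRA (chr4:54229143-54229292, plus), F2RL2 (chr5:76623404-76623553, minus) and IL1A (chr2:112784494-112784643, minus).
SERPINB2: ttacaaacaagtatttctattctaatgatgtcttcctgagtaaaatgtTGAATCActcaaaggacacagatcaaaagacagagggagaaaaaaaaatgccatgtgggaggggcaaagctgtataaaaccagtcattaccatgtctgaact
CXCL8: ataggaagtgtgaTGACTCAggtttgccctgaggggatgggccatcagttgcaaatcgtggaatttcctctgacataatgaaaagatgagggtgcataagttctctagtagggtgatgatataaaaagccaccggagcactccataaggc
PDGFRA: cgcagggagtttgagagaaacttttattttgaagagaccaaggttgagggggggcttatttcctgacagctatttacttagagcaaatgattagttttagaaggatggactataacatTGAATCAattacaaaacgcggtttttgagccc
F2RL2: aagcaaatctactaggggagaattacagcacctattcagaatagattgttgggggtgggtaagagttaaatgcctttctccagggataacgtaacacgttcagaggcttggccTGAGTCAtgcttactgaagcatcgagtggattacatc
IL1A: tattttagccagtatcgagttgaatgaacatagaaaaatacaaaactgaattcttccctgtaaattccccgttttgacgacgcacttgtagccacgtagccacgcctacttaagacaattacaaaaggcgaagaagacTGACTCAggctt

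The element begins 102 bases before the start in SERPINB2, 137 in CXCL8, 32 in PDGFRA, 37 in F2RL2 and 12 in IL1A. It reads TGAATCA in SERPINB2 and PDGFRA, TGACTCA in CXCL8 and IL1A, and TGAGTCA in F2RL2. For SERPINB2 the RefSeq start lies inside the GENCODE span of the gene, downstream of its first base. The receptor element TNGCGTG was in 4 member promoters (6.56%, against 6.28% of all), and its core GCGTG in 29 (47.5%, against 43.0%). It lay 32 bases before the start in AHRR (chr5:321564-321713, plus) and 98 bases before it in SOCS3 (chr17:78360926-78361075, minus), shown with the element in capitals.
AHRR: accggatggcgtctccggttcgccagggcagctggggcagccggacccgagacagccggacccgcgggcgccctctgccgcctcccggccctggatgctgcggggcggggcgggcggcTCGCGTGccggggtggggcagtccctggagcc
SOCS3: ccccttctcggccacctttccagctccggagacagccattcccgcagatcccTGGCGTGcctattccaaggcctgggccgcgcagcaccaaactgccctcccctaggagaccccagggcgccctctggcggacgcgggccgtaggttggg

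The cyclic AMP response element TGACGTCA, which was searched because ABCC4 exports cyclic AMP, was present in 4 member promoters (6.56%, against 2.26% of all), and its core TGACG, which the full element contains, in 24 (39.3%, against 27.9%). The STAT motif TTCNNNGAA was in 5 (8.20%, against 6.79%), the ETS motif CCGGAAG in 5 (8.20%, against 12.8%) and the GATA motif AGATAA in 3 (4.92%, against 7.91%). The GC box GGGCGG was in 38 (62.3%, against 56.3%) and the TATA box TATAAA in 8 (13.1%, against 9.47%). Median GC content was 64.3% in member promoters and 62.3% in all. These are matches of letters, not measured binding, and a gene without a match may hold the element elsewhere. Promoters of the other PMA-induced genes were not compared as a set.

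Proteases, their inhibitors and clotting regulators included the most abundant members. SERPINB2, plasminogen activator inhibitor 2, on chromosome 18 at 63871692 to 63903890, had 2.31 and 2.95 TPM in untreated, 937 and 722 with PMA, 1808 and 1701 with PMA plus Ceefourin 2, and 11.1 and 7.71 with Ceefourin 2 alone. Its level in PMA plus Ceefourin 2 was the highest of all 91 genes. MMP1, interstitial collagenase, had 2.79 and 2.02 TPM untreated, 120.1 and 132 with PMA, 274 and 302 with both agents, and 9.54 and 5.85 with Ceefourin 2 alone. In SERPINB2 and MMP1 both Ceefourin 2 libraries lay above both untreated libraries and far below PMA.

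GZMB, granzyme B, a protease of cytotoxic granules, had the largest PMA to untreated ratio. It had 0.09 and 0.12 TPM in untreated, 270.3 and 111 with PMA, 456 and 420.4 with PMA plus Ceefourin 2, and 0.29 and 0.18 with Ceefourin 2 alone. PMA libraries 1 and 2 differed by more than 2 times, and PMA plus Ceefourin 2 exceeded both. Only 3 expected counts stood behind the untreated level, and the ratio of scaled counts was 4620 (95% interval 1580 to 22400, counting error only). The other 21 genes on the list of T, NK and B lymphoid markers summed to 6.89 to 7.61 TPM in untreated, 4.85 to 5.22 in PMA, 5.57 to 6.73 in PMA plus Ceefourin 2 and 11.6 to 14.7 in Ceefourin 2 alone, an order that GZMB did not follow, and CD3E, MS4A1 and PAX5 were at 0 in every library.

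CTSL, the lysosomal protease cathepsin L, and THBD, thrombomodulin, differed from the others of their group in the direction of Ceefourin 2 alone. CTSL had 137 and 140.5 TPM in untreated, 396 and 356 with PMA, 623 and 658 with PMA plus Ceefourin 2, and 117 and 108 with Ceefourin 2 alone. THBD, which turns thrombin towards protein C activation, had 3.38 and 1.94 TPM untreated, 38.2 and 31.9 with PMA, 56.2 and 59.9 with both agents, and 1.80 and 1.27 with Ceefourin 2 alone. In both genes the Ceefourin 2 libraries lay below both untreated libraries.

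Interferon-induced and antigen processing genes were 6. GBP4, a guanylate-binding protein on chromosome 1 (89181148 to 89198932), had 30.9 and 29.7 TPM in untreated, 103 and 93.8 with PMA, 246 and 200.3 with PMA plus Ceefourin 2, and 74.0 and 64.8 with Ceefourin 2 alone. Its neighbour GBP2, 30.7 kb away, had 1.44 and 2.17 TPM untreated, 21.5 and 20.7 with PMA, 43.3 and 41.6 with both agents, and 3.03 and 2.56 with Ceefourin 2 alone. The guanylate-binding proteins are a family of similar copies, and how RSEM shared reads among them can affect each value. RSAD2, viperin, an antiviral enzyme, had 3.78 and 3.90 TPM untreated, 10.6 and 12.8 with PMA, 23.6 and 24.0 with both agents, and 6.52 and 5.09 with Ceefourin 2 alone. PSMB9, an immunoproteasome subunit, had 2.14 and 2.85 TPM untreated, 8.62 and 8.71 with PMA, 18.8 and 14.96 with both agents, and 3.79 and 3.77 with Ceefourin 2 alone. In these 4 genes the order of the groups was untreated, Ceefourin 2 alone, PMA and PMA plus Ceefourin 2, without overlap.

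CH25H, which makes 25-hydroxycholesterol, was 2.07 times as high in PMA plus Ceefourin 2 as in PMA. PLAAT4, a phospholipase and acyltransferase induced by retinoids and interferon, had 0.91 and 0.52 TPM untreated, 6.25 and 6.72 with PMA, 11.5 and 12.1 with both agents, and 0.11 and 0.25 with Ceefourin 2 alone. It had the lowest Ceefourin 2 to untreated ratio of the 91 genes, 0.252, and the Ceefourin 2 libraries were the lowest of all groups. That ratio rests on few expected counts, 12 and 13 in untreated and 3 and 6 with Ceefourin 2 alone.

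Adhesion and membrane organising proteins were 8 genes. MDGA1, a membrane-anchored adhesion protein of the immunoglobulin family on chromosome 6 (37630679 to 37699306), had 0.11 and 0.26 TPM in untreated, 9.45 and 6.91 with PMA, 32.7 and 23.7 with PMA plus Ceefourin 2, and 1.63 and 1.57 with Ceefourin 2 alone. CD9, a tetraspanin abundant on platelets, on chromosome 12 at 6199715 to 6238271, had 0.15 and 0.09 TPM untreated, 23.0 and 20.0 with PMA, 69.9 and 59.8 with both agents, and 0.14 and 0.32 with Ceefourin 2 alone. The genes differed in Ceefourin 2 alone, where MDGA1 stood above untreated in both libraries and CD9 overlapped it. ICAM1, the ligand of beta-2 integrins, had 0.95 and 1.69 TPM untreated, 4.86 and 7.44 with PMA, 11.2 and 14.8 with both agents, and 1.63 and 2.82 with Ceefourin 2 alone, where it overlapped untreated.

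MCAM (CD146), which the deposited table lists as AP002956.1 under the identifier of MCAM, had 0.80 and 0.99 TPM in untreated, 5.09 and 6.31 with PMA, 7.93 and 13.4 with PMA plus Ceefourin 2, and 1.57 and 1.68 with Ceefourin 2 alone. CADM4, a cell adhesion molecule, had a PMA plus Ceefourin 2 to PMA ratio of 1.76, the membrane protein EMP1 1.69, and CEACAM21 2.15. CEACAM21 rests on few expected counts, 17 and 36 in untreated and 59 and 52 with PMA. It was not called in PMA against untreated (log2 fold change 1.15, edgeR adjusted p = 0.0843). TNXB, tenascin X, had a ratio of 1.79, and reads of it could be shared with ATF6B, which it overlaps.

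Transporters and metabolic enzymes were 9 genes. The glucose transporters SLC2A1 (GLUT1) and SLC2A3 (GLUT3, the main form in platelets) were both high before treatment. SLC2A1 had 145 and 149.9 TPM in untreated, 327 and 315 with PMA, 478 and 588 with PMA plus Ceefourin 2, and 171 and 181 with Ceefourin 2 alone. SLC2A3 had 48.1 and 55.4 TPM untreated, 374 and 412 with PMA, 656 and 633 with both agents, and 79.6 and 103 with Ceefourin 2 alone, and it has a near copy, SLC2A14, with which reads can be shared. SLC20A1, a sodium-dependent phosphate transporter, had 176 and 103 TPM untreated, 473 and 393 with PMA, 819 and 619 with both agents, and 460.3 and 269 with Ceefourin 2 alone. In SLC20A1 library 1 was the higher library of every group, and Ceefourin 2 alone overlapped PMA.

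ATP8B1, a phospholipid flippase, had 0.89 and 0.53 TPM in untreated, 1.92 and 1.06 with PMA, 5.45 and 3.21 with PMA plus Ceefourin 2, and 2.91 and 2.05 with Ceefourin 2 alone, so that Ceefourin 2 alone was above PMA. PNPLA7, a lysophospholipase, had 0.11 and 0.23 TPM untreated, 1.3 and 0.90 with PMA, 4.58 and 3.02 with both agents, and 0.07 and 0.16 with Ceefourin 2 alone. Here Ceefourin 2 alone lay below PMA and overlapped untreated. The polyamine enzyme SMOX (ratio 2.06), the potassium-chloride cotransporter SLC12A4 (1.70), the lipid-binding protein SEC14L2 (1.65) and NT5E (1.64) were the others. NT5E is CD73, which makes adenosine from AMP outside the cell, and it was 68.2 times as high in PMA as in untreated cells.

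Cytoskeletal genes were 6. SEPT10, a septin, had 0.22 and 0.39 TPM in untreated, 6.67 and 4.72 with PMA, 13.3 and 13.2 with PMA plus Ceefourin 2, and 1.34 and 1.14 with Ceefourin 2 alone. SHANK1, a scaffold known from synapses, had 0.77 and 0.43 TPM untreated, 3.62 and 6.48 with PMA, 10.3 and 13.0 with both agents, and 2.38 and 2.41 with Ceefourin 2 alone. All groups were separated in both genes. The linker PLEC (ratio 2.00), the band 4.1 family protein EPB41L1 (2.57), the actin-binding protein ABLIM3 (1.66) and the cofilin phosphatase SSH1 (1.88) were the rest.

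The 4 genes of stress and growth arrest had ratios from 1.68 to 1.80. NDRG1, a stress and hypoxia-induced protein, had 17.8 and 24.1 TPM in untreated, 104 and 95.4 with PMA, 177 and 181 with PMA plus Ceefourin 2, and 32.6 and 41.8 with Ceefourin 2 alone. BMF, a death-promoting BCL2 family member, had a ratio of 1.73, FBXO32, a ubiquitin ligase subunit, 1.71, and SESN3, a sestrin, 1.68.

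For 11 genes no role is given here. FAM107B was the most abundant of them, with 20.5 and 20.9 TPM in untreated, 109 and 101 with PMA, 279 and 282 with PMA plus Ceefourin 2, and 40.0 and 45.1 with Ceefourin 2 alone. TMEM74B, a transmembrane protein, had 0.38 and 0.37 TPM untreated, 1.15 and 1.39 with PMA, 3.86 and 3.83 with both agents, and 0.63 and 0.90 with Ceefourin 2 alone. In both genes the 4 groups did not overlap. The ratio of PMA plus Ceefourin 2 to PMA was 2.56 for ERV3-1, 2.28 for SOWAHC, 1.96 for TMEM140, 1.73 for SH3TC1 and 1.71 for ZSWIM4, and TMEM158 and MYEOV are given with the threshold below. AC244197.3 (2.18) overlaps IDS, and AL139260.3 (2.64) overlaps MYCBP on the same strand. AL139260.3 stood at 0 and 2.94 TPM in untreated libraries 1 and 2, so its place among the members is uncertain. PDGFRA overlaps AC058822.1, RPS6KA2 overlaps RAMACL, CEACAM21 overlaps AC243960.1 and PSMB9 overlaps PSMB8-AS1, and their reads could likewise be shared.

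**Figure D2:**
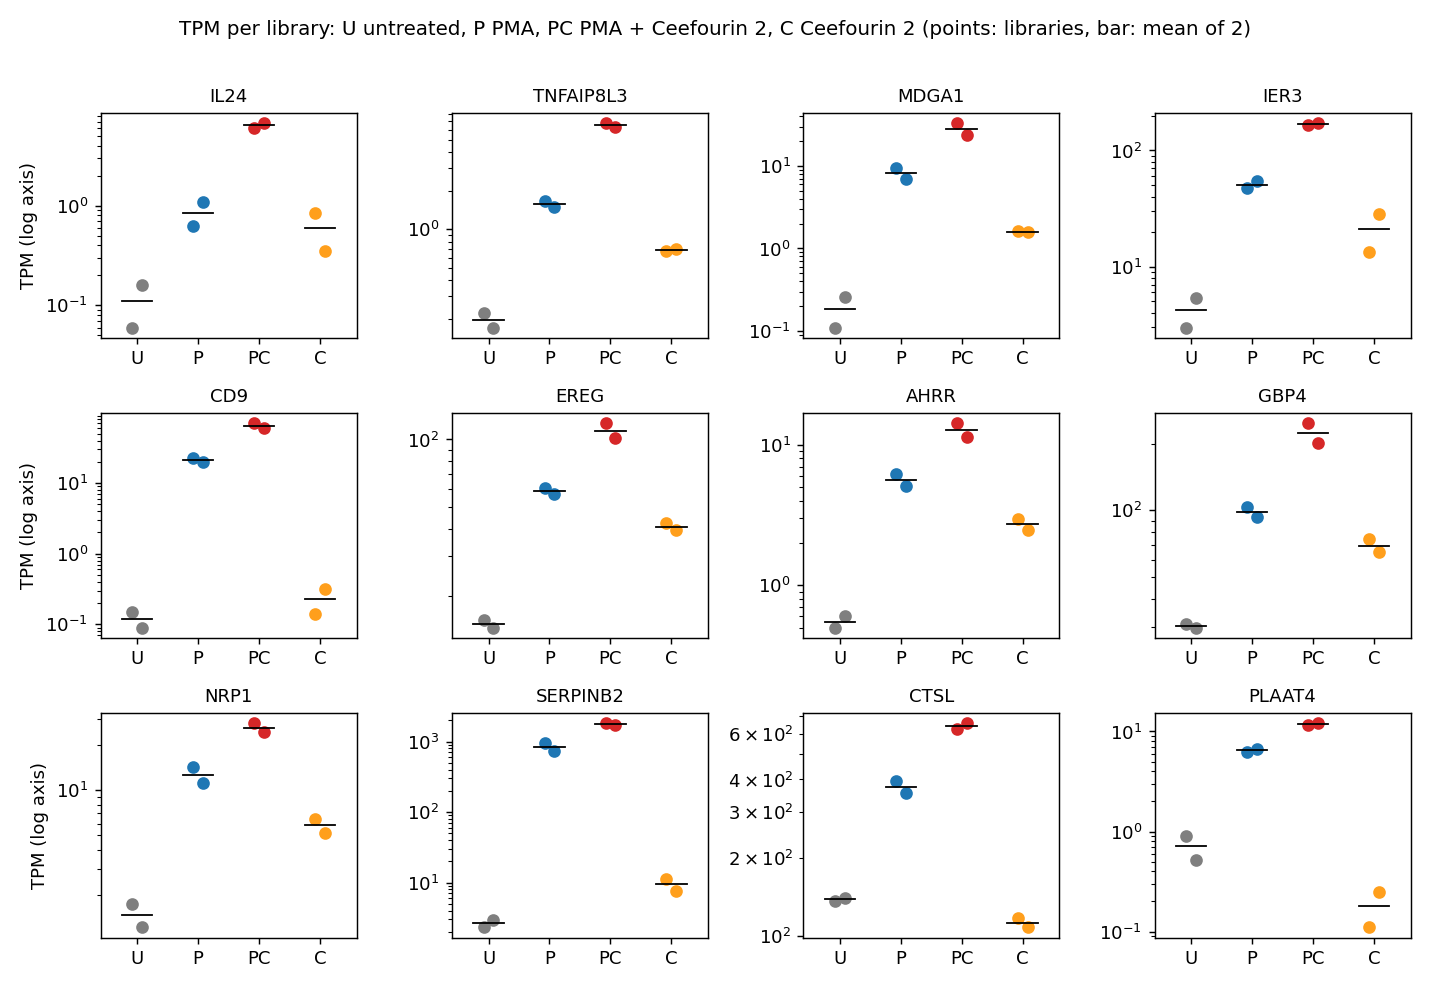
TPM of 12 of the genes in each library on log axes. Points are libraries and the bar is the mean of the 2 libraries of untreated (U), PMA (P), PMA plus Ceefourin 2 (PC) and Ceefourin 2 alone (C). Ceefourin 2 alone lies between untreated and PMA in EREG, AHRR, GBP4, NRP1 and SERPINB2, and below untreated in CTSL and PLAAT4.

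Some members are neighbours on their chromosomes. Within 200 kb of each other lay 6 pairs, holding 12 of the 90 genes with a GENCODE v29 position. Among them, SEPT10 and SOWAHC on chromosome 2 are 0.1 kb apart, GBP4 and GBP2 on chromosome 1 are 30.7 kb apart, the thrombin receptor genes F2RL2 and F2R on chromosome 5 are 92.6 kb apart, and IL1A and SLC20A1 on chromosome 2 are 110.1 kb apart. ERV3-1 and ZNF117 on chromosome 7 overlap.

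The comparison of Ceefourin 2 alone with untreated cells shows how these genes stood under Ceefourin 2 without PMA. The EGF receptor ligands EREG and HBEGF, the repressor AHRR, the receptors NRP1 and PDGFRA, the protease inhibitor SERPINB2 and the collagenase MMP1 were among the genes that rose. In edgeR 23 of the 91 genes (25.3%) were called higher, where 0.959% of all tested genes and 6.84% of the other PMA-induced genes that met the level conditions were. The count of members called lower was 0, with 3 at an unadjusted p below 0.05 in edgeR (PLAAT4, CTSL and THBD), 1 called by DESeq2 and 0 by limma at either pseudocount, where edgeR called 0.722% of all tested genes and 1.74% of the other PMA-induced genes lower. At an unadjusted p below 0.05, 57 members were higher. The selection used the untreated libraries, and genes chosen for a low untreated value tend to be higher in any other group, so the shares are not free of the selection.

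The call with the smallest p was EREG, which rose by 1.43 on the log2 scale (SE 0.086, edgeR adjusted p = 0.000824). AHRR rose by 2.35 (SE 0.20, edgeR adjusted p = 0.00365), GBP4 by 1.21 (SE 0.11, edgeR adjusted p = 0.00365) and NRP1 by 2.22 (SE 0.22, edgeR adjusted p = 0.00573). EREG, AHRR under ENSG00000286169.1 and GBP4 were called in all 14 alternative analyses run for single genes. Under its other identifier, ENSG00000063438.17, AHRR rose by 1.81 and was not called (SE 0.479, edgeR adjusted p = 0.126). FAM107B rose by 1.04 (SE 0.10, edgeR adjusted p = 0.00581), and the scaffold SHANK1 (log2 fold change 1.83), the septin SEPT10 (1.94) and the lipid carrier TNFAIP8L3 (1.80) each had an edgeR adjusted p of 0.0119. In all of these both Ceefourin 2 libraries were above both untreated libraries.

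SERPINB2 rose by 1.81 and PDGFRA by 1.23 on the log2 scale (edgeR adjusted p = 0.0121 for both). MDGA1 had the largest rise of the 91, at 2.63 on the log2 scale (SE 0.33, edgeR adjusted p = 0.0126). WWTR1 (0.87) and MMP1 (1.66) had an edgeR adjusted p of 0.0131, OSMR (1.6) of 0.0142 and STC1 (1.52) of 0.0179. The other 8 called genes were SOCS3 (0.97), ABLIM3 (1.77), HBEGF (1.40), IER3 (2.26), SOWAHC (1.3), AC244197.3 (0.97), F2R (0.77) and CD69 (0.98), with edgeR adjusted p from 0.0208 to 0.0473. All 23 kept their direction in the 14 alternatives, but HBEGF, SOWAHC, AC244197.3, F2R and CD69 were not called in most of them.

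**Figure D3:**
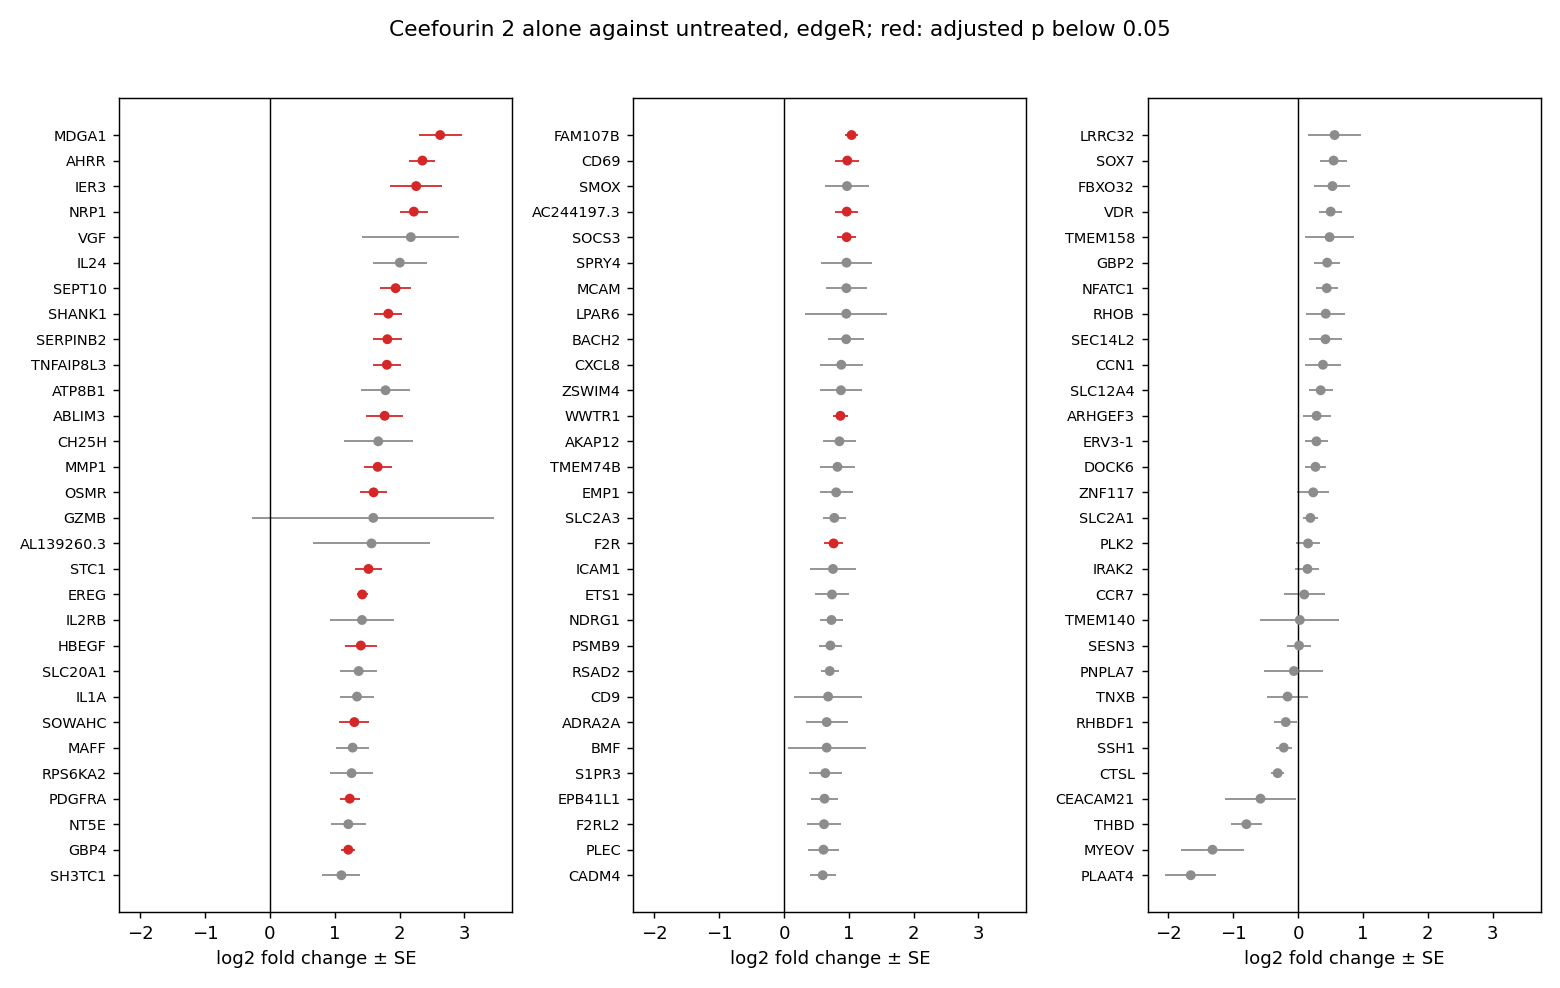
Log2 fold change of Ceefourin 2 alone against untreated for 90 of the 91 genes, with its SE as a bar, from the edgeR fit. Genes are in falling order from the left panel to the right, and red marks the 23 genes called at an adjusted p below 0.05. Of the 90 values 81 are above 0, and PLAAT4 is the lowest at -1.66.

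The count depended on the untreated libraries. Without untreated library 1 it fell to 4 and without untreated library 2 to 5, and an arm of 1 library is then assumed to vary like the other groups. It was 43 with DESeq2, 52 without a filter on low counts and 13 with limma on log2(TPM + 1).

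The 91 genes had a median log2 fold change of 0.80 in this contrast, against 0.00 for all tested genes and 0.16 for the other PMA-induced genes, and 82 of 91 values were positive. By library, both Ceefourin 2 libraries lay above both untreated libraries in 67 members (73.6%), as they did in 21.7% of all tested genes and 43.9% of the other PMA-induced genes. They lay below in 4 members (4.40%), against 16.3% of all and 13.4% of the other PMA-induced genes, and overlapped in 20. The 4 were PLAAT4, THBD, CTSL and MYEOV. Against PMA, Ceefourin 2 alone was lower in both libraries in 84 members, overlapped in IL24, IL1A, AC244197.3, HBEGF and SLC20A1, and was higher in ATP8B1 and AL139260.3.

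Erythroid genes, none of them among the 91, fell in the same contrast. Of 28 tested genes on the erythroid list, edgeR called 17 lower and 0 higher, with 26 lower and 0 higher at an unadjusted p below 0.05, 21 called lower by DESeq2 and 15 to 16 by limma, and 0 higher by DESeq2 or limma. Their median log2 fold change was -1.3, with HBD, the delta globin gene, at -1.42 (edgeR adjusted p = 0.0121) and CA1, carbonic anhydrase 1, at -1.49 (edgeR adjusted p = 0.022). The count called lower was 2 without either untreated library, 4 and 9 without Ceefourin 2 libraries 1 and 2, and 11 without either PMA library. Summed TPM of the 30 erythroid markers, of which 0 were at 0 in every library, was 11600 to 12500 in untreated, 33000 to 40300 in PMA, 27200 to 34900 in PMA plus Ceefourin 2 and 5830 to 6250 in Ceefourin 2 alone. The higher sum with PMA does not stand for most of the list. In PMA against untreated edgeR called 19 of the 28 tested genes lower and 8 higher, with a median log2 fold change of -1.06. Of all tested genes 27.9% were called higher in that contrast, and the share called lower is not given here. The part of these markers in the rise of the 91 genes was not tested.

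By functional group, edgeR called 5 of 12 receptors higher in Ceefourin 2 alone against untreated (F2R, PDGFRA, NRP1, OSMR and CD69). It called 3 of 8 secreted factors higher (STC1, EREG and HBEGF), 3 of 12 signalling genes and 3 of 6 cytoskeletal genes, against 0.959% of all tested genes. The count was 2 of 9 transcription regulators (AHRR and WWTR1), 2 of 6 proteases, inhibitors and clotting regulators (SERPINB2 and MMP1), 1 of 6 interferon-induced and antigen processing genes (GBP4), 1 of 8 adhesion, matrix and membrane genes (MDGA1) and 3 of the 11 remaining genes. Of the 9 transport and metabolic genes edgeR called 0 higher, with 5 at an unadjusted p below 0.05, 5 called by DESeq2 and 1 by limma at either pseudocount. Of the 4 stress genes it called 0, with 1 at an unadjusted p below 0.05, 1 called by DESeq2 and 0 by limma. SLC20A1 (log2 fold change 1.37, edgeR adjusted p = 0.066) and ATP8B1 (1.78, edgeR adjusted p = 0.0639) were above both untreated libraries in both Ceefourin 2 libraries. IL24 (2.00, edgeR adjusted p = 0.0654) and IL1A (1.34, edgeR adjusted p = 0.0525) also missed the threshold. Differences between the groups of genes were not tested.

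Calls rest on counts and the selection on TPM, and the 2 scales can part where the transcripts of a gene differ in length. In Ceefourin 2 alone against untreated, SH3TC1 rose by counts, with a log2 fold change of 1.10. Its mean TPM was 0.931 times the untreated one, with overlapping libraries. AC244197.3 rose on both scales, with a log2 fold change of 0.97 by counts and a mean TPM 2.74 times the untreated one. On log2(TPM + 0.1), limma gave AC244197.3 a log2 fold change of 1.39. In PMA plus Ceefourin 2 against PMA the scales parted for AC244197.3. Its mean TPM was 2.18 times that in PMA, but its log2 fold change by counts was 0.61, the lowest of all members. It was not called in that contrast (edgeR adjusted p = 0.120).

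Across the 91 genes the log2 ratio of Ceefourin 2 alone to untreated and the log2 ratio of PMA plus Ceefourin 2 to PMA had a Pearson r of 0.43 and a Spearman rho of 0.39. This is a description across genes, which are not independent replicates, and the second ratio was limited to at least 1.6 by the selection. Some genes had a larger ratio with PMA than without, such as CD9 (3.02 with PMA, 1.92 without, on 8 untreated counts) and PNPLA7 (3.45 and 0.676). The PNPLA7 ratio without PMA rests on few counts, 11 and 21 in untreated and 13 and 22 with Ceefourin 2 alone. By counts PNPLA7 hardly differed between those groups (log2 fold change -0.07, edgeR adjusted p = 0.981). Others had a larger ratio without PMA than with it, such as AHRR (4.93 without and 2.27 with) and NRP1 (3.93 and 2.06). Whether a gene's ratios differ was not tested. In the same edgeR fit 17 of the 23 genes called with Ceefourin 2 alone also passed in PMA plus Ceefourin 2 against PMA, a contrast the selection used.

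**Figure D4:**
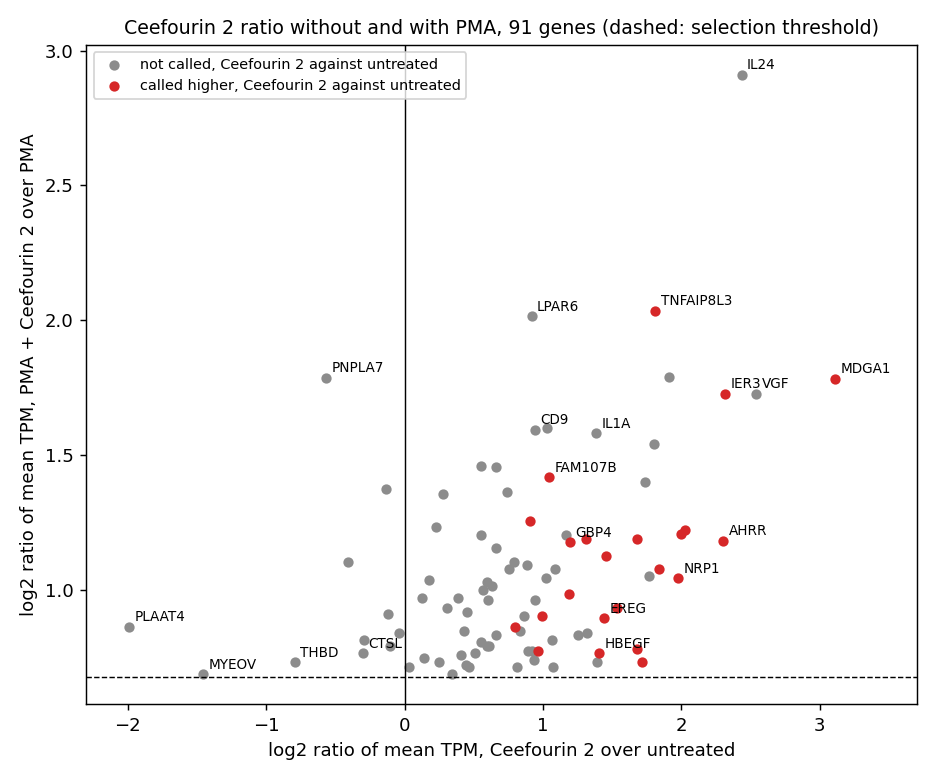
Ratio of PMA plus Ceefourin 2 to PMA (vertical) against the ratio of Ceefourin 2 alone to untreated (horizontal), both as log2 of mean TPM, for the 91 genes. Red marks the 23 genes called higher with Ceefourin 2 alone and the dashed line is the selection threshold of 1.6. IL24 stands highest, and PLAAT4, MYEOV, THBD and CTSL lie left of 0.

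Genes of the same pathways outside the 91 were read from fixed lists, in PMA plus Ceefourin 2 against PMA, where 0.918% of all tested genes were called higher and 0.913% lower. Of 5 tested non-members among the aryl hydrocarbon receptor targets, 3 were called higher. CYP1B1, a cytochrome P450, had 14.7 and 15.5 TPM in untreated, 18.03 and 17.9 with PMA, 87.2 and 70.8 with PMA plus Ceefourin 2, and 97.6 and 88.2 with Ceefourin 2 alone (log2 fold change 2.21 against PMA, SE 0.10, edgeR adjusted p = 0.000222). TIPARP, which limits the receptor, rose by 1.20 (edgeR adjusted p = 0.00665) and the P450 gene CYP1A1 by 2.77 (edgeR adjusted p = 0.0151). The same 3 genes were called higher in Ceefourin 2 alone against untreated. In PMA against untreated, CYP1B1, TIPARP and CYP1A1 had log2 fold changes of 0.48, 0.52 and 0.45, and AHRR and SERPINB2, the members on this list, had 3.63 and 8.56. Over the 5 tested non-members the median log2 fold change in PMA plus Ceefourin 2 against PMA was 1.20, against 0.00 for all tested genes, and in PMA against untreated it was 0.45.

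In other lists the members were a small part of the pathway. Of 30 tested immediate early and MAPK feedback genes outside the 91, 0 were called in either direction in PMA plus Ceefourin 2 against PMA by edgeR, with 8 higher and 0 lower at an unadjusted p below 0.05, 2 called higher by DESeq2 and 0 by limma. Their median log2 fold change was 0.24, and 24 of them were called higher in PMA against untreated, as were 27.9% of all tested genes. Of 33 interferon-stimulated genes, GBP5 was called higher (log2 fold change 2.46, edgeR adjusted p = 0.0126), and the median was -0.13. Of 32 cytokines and chemokines, LIF and TNF were called higher, and CCL23 (log2 fold change -2.64) and CCL4 (-1.77) lower; CCL4 is nearly identical to CCL4L2, so its value is uncertain. Of 31 proteases and inhibitors, MMP2 and ADAMTS7 were called higher and SERPINB1 lower. Of 26 growth factors and receptor tyrosine kinases, KIT (log2 fold change 2.52), KDR (1.79) and PDGFA (1.44) were called higher. Of 20 hypoxia and glycolysis genes, 0 were called by edgeR in either direction, with 4 higher and 2 lower at an unadjusted p below 0.05, 1 in each direction by DESeq2 and up to 1 by limma. Of 28 platelet genes, PTGS1 was called higher and 4 were called lower, among them PLEK, SELP and RGS18.

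Over all lists 22 distinct non-members were called higher and 26 lower in that contrast. Leaving out a single library moved the count of higher calls to between 6 and 29, with 14 and 9 without PMA libraries 1 and 2 and 6 and 11 without PMA plus Ceefourin 2 libraries 1 and 2. The count of lower calls was 14 and 6 without PMA libraries 1 and 2 and 4 and 9 without PMA plus Ceefourin 2 libraries 1 and 2.

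The threshold of 1.6 falls within a run of close ratios. Just inside were CCN1 and MYEOV (ratio 1.61) and NT5E, TMEM158 and SLC2A3 (1.64), and just outside were TSPAN9 (1.59) and PIK3IP1, KRT8 and TMEM200A (1.58). CCN1 had 2.22 and 1.57 TPM in untreated, 6.23 and 7.48 with PMA, 8.66 and 13.3 with PMA plus Ceefourin 2, and 2.92 and 1.90 with Ceefourin 2 alone. MYEOV had 0.09 and 0.13 TPM untreated, 4.57 and 3.40 with PMA, 6.40 and 6.46 with both agents, and 0.06 and 0.02 with Ceefourin 2 alone. Its Ceefourin 2 libraries were the lowest. NT5E had 0.31 and 0.46 TPM untreated, 31.4 and 21.1 with PMA, 43.5 and 42.4 with both agents, and 0.94 and 0.68 with Ceefourin 2 alone. TMEM158 had 0.19 and 0.10 TPM untreated, 12.1 and 9.08 with PMA, 16.8 and 17.9 with both agents, and 0.21 and 0.19 with Ceefourin 2 alone. SLC2A3 is given above.

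Of the genes just outside, TSPAN9 had 1.09 and 1.22 TPM in untreated, 2.64 and 2.54 with PMA, 3.55 and 4.68 with PMA plus Ceefourin 2, and 1.27 and 1.21 with Ceefourin 2 alone. PIK3IP1 had 0.62 and 0.68 TPM untreated, 2.07 and 2.53 with PMA, 3.03 and 4.25 with both agents, and 0.53 and 0.68 with Ceefourin 2 alone. KRT8 had 8.52 and 13.0 TPM untreated, 30.7 and 37.8 with PMA, 51.2 and 57.2 with both agents, and 12.3 and 16.2 with Ceefourin 2 alone. TMEM200A had 0.74 and 1.00 TPM untreated, 9.25 and 10.6 with PMA, 16.2 and 15.1 with both agents, and 3.58 and 3.72 with Ceefourin 2 alone. In each of these 4 both PMA plus Ceefourin 2 libraries also exceeded both PMA libraries.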

How the data were processed

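Stranded mRNA libraries from 8 MEG-01 samples, 2 in each of 4 groups, were sequenced from both ends, per the labels' protocols. STAR 2.7 and RSEM 1.3.1 on hg38 were the authors' tools, per the submitters' processing notes, with an annotation release not given in the sources used here. For 60754 genes the authors deposited expected counts, which are not normalized, and TPM, which RSEM scales for length and depth. The genes were selected on TPM by the conditions given above, and the members and gene lists were chosen with earlier results of these data known.

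After rounding of the expected counts, edgeR 4.0.16 (R 4.3.3) fitted all 8 libraries at the same time with TMM scaling (0.92 to 1.08) on the 17314 genes that filterByExpr left, and quasi-likelihood tests used Benjamini-Hochberg adjustment over all tested genes at 0.05. Each SE was obtained from the log2 fold change and its F statistic. Residual degrees of freedom were 4 per gene, and common biological variation was 13.6%. Alternatives used DESeq2 1.42.0, limma 3.58.1 on log2(TPM + 0.1) and log2(TPM + 1), other filters, a block for the replicate number and each library left out. The script was tested on simulated data. Libraries of a group differed beyond 95% sampling noise in 59.2% to 68.2% of genes, so none was treated as a library deposited again, which does not show that they are separate cultures. Values in every library are given for the 15 members with the largest ratio of PMA plus Ceefourin 2 to PMA, the 10 with the highest TPM there, members in a gene list, the 15 called members with the smallest p in Ceefourin 2 against untreated, and 5 genes on each side of the threshold of 1.6, apart from a few genes that are not reported here. Up to 4 called non-members of a list, by smallest p, and ABCC4 could be named. The genes drawn in the plot of 12 genes and those labelled in the plot of ratios were chosen after their values were seen. Positions are from GENCODE v29 (GRCh38), and promoters from RefSeq.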

Additional observations from a re-analysis of the deposited data

Results flagged for a closer look

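In 4 of the 91 genes Ceefourin 2 alone lay below untreated in both libraries, while the selection placed PMA plus Ceefourin 2 above PMA in both. The log2 fold changes of Ceefourin 2 alone against untreated were -1.66 for PLAAT4 (edgeR adjusted p = 0.0948), -1.32 for MYEOV (edgeR adjusted p = 0.482), -0.80 for THBD (edgeR adjusted p = 0.166) and -0.32 for CTSL (edgeR adjusted p = 0.208). PLAAT4 is an interferon and retinoid-induced lipid enzyme, THBD is thrombomodulin and CTSL is cathepsin L. MYEOV had 9 expected counts over both untreated libraries. PLAAT4 had 12 and 13 expected counts in untreated libraries 1 and 2 and 3 and 6 in those of Ceefourin 2 alone. The difference between the Ceefourin 2 effects with and without PMA was not tested, and the effect with PMA was fixed by the selection.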

How the results depend on the processing

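The 23 members called higher in Ceefourin 2 alone became 43 with DESeq2, 52 without a filter on low counts, 44 with the replicate block and 13 with limma on log2(TPM + 1), and 4 (without untreated library 1) to 21 with 1 library left out. The 0 called lower became 1 (THBD) with DESeq2, and 2 (PLAAT4 and THBD) without a filter and with the replicate block. Among single genes, 233 values kept their call and 89 lost it, and none changed direction. The 44 members that passed in PMA plus Ceefourin 2 against PMA became 79 with DESeq2, 91 without a filter, 85 with the replicate block and 17 with limma on log2(TPM + 0.1), and 5 to 51 with 1 library left out, with 19 and 8 without PMA libraries 1 and 2 and 5 and 14 without PMA plus Ceefourin 2 libraries 1 and 2. List genes outside the 91 called higher there, 22, became 67 with DESeq2, 99 without a filter, 97 with the replicate block and 6 to 29 with 1 library left out. Those called lower, 26, became 46, 66, 67 and 4 to 28. The cause was not tested. The 91 members became 44 at a ratio of 2, 44 with untreated above 1 TPM, 59 at 10 TPM or more, and 87 to 112 with 1 library left out, 77 to 88 of them shared.

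Whether equal replicate numbers mark paired libraries is not stated in the labels, and 2 numbers are too few to decide it: differences between libraries 1 and 2 were positively correlated in all 6 pairs of groups, at 0.117 to 0.310. With 2 libraries a group the spread is imprecise, and 3 untreated counts of GZMB, 8 of CD9 and 12 of IL24 limit their ratios.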
